A study of Mus musculus with 5 samples.

Results

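The genes described here encode the secreted ligands of the TGF-beta family, among them the bone morphogenetic proteins (Bmp), growth and differentiation factors (Gdf), TGF-betas (Tgfb), activin and inhibin subunits (Inh), Nodal, Lefty and Amh, together with 5 of their antagonists. They were chosen by gene name, which gave 37 of the 21631 protein-coding genes of the RefSeq annotation (GRCm38.p6, the mm10 build) on the chromosomes that the data cover. All 37 lie on autosomes. For each gene, the called regions of 2 histone marks were collected over the gene body and 1 kb on each side, called the gene window below.

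The chromatin came from basal progenitor cells of the back skin epidermis of adult mice at postnatal day 71, with genotype given as control. The mice carried the reporters K14-RFP and K10-H2B-GFP, which are driven by keratin promoters active in basal and in suprabasal keratinocytes, and the sorted cells were Sca1(+), RFP(high) and GFP(-). Immunoprecipitation used an antibody against H2AK119ub (2 libraries) or H3K27me3 (2 libraries), and 1 input library had no antibody. The labels do not give the sex of the mice or whether animals were pooled, and without such a label the 2 libraries of a mark may be technical repeats. The data are 1 list of regions per mark, with no height, score or replicate, so each statement below describes these lists, no error between replicates can be given, and the read depth is unknown.

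H2AK119ub, monoubiquitinated histone H2A, is deposited by Polycomb repressive complex 1, and H3K27me3, trimethylated histone H3, by Polycomb repressive complex 2. Both complexes are known for keeping developmental regulators silent in cell types that do not use them. TGF-beta family ligands bind pairs of type I and type II receptor kinases, which phosphorylate Smad proteins that enter the nucleus, and antagonists such as noggin and follistatin bind the ligands outside the cell. In skin, Bmp signals hold hair follicle stem cells at rest, noggin relieves that hold during hair growth, and TGF-beta limits the division of keratinocytes.

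The promoters below show the range of sequence and of marks among these genes. Each is the RefSeq window of 300 bases, from 250 bases before the annotated start site, written 5′ to 3′ on the strand of the gene, with every CG dinucleotide (CpG) in capitals. In the first group both marks lay over the start site. Gdf10 (chr14:33923337-33923636, plus strand), Chrd (chr16:20732877-20733176, plus) and Grem1 (chr2:113758599-113758898, minus) are rich in CpG, and Bmp10 (chr6:87428744-87429043, plus) is poor in it.
Gdf10: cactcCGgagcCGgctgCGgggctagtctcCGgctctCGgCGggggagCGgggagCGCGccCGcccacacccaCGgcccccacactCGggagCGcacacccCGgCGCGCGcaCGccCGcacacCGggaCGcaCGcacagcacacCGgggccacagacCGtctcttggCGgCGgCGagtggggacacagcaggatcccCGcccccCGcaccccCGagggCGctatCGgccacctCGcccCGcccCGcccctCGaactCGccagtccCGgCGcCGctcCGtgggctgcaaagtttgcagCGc
Chrd: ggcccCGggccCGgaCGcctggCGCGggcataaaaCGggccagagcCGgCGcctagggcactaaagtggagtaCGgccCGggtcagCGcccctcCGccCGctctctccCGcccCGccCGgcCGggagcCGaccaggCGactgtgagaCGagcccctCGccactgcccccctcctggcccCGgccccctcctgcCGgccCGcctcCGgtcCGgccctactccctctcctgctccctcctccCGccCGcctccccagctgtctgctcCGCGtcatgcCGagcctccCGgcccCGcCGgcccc
Grem1: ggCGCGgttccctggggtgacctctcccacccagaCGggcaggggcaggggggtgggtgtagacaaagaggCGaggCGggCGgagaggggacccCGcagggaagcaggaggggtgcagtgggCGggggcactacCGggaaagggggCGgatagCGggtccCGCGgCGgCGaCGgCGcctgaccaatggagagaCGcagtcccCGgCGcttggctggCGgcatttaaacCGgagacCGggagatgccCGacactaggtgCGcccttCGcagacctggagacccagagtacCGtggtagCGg
Bmp10: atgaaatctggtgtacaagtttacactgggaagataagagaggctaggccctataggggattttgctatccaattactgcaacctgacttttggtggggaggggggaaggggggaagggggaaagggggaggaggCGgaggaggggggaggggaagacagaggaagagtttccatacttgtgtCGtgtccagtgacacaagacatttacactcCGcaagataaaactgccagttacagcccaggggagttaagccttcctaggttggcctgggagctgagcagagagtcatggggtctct

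In the second group only H2AK119ub lay over the start. Tgfb1 (chr7:25686752-25687051, plus) is rich in CpG and had no H3K27me3 in its window, and at Bmp4 (chr14:46390620-46390919, minus) H3K27me3 began 213 bp inside the gene.
Tgfb1: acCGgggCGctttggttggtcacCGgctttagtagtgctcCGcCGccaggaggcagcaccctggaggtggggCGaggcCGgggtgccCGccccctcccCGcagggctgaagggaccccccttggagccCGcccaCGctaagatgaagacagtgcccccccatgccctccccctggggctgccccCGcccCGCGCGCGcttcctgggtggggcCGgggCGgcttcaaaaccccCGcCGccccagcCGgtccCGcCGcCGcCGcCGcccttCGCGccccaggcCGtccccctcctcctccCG
Bmp4: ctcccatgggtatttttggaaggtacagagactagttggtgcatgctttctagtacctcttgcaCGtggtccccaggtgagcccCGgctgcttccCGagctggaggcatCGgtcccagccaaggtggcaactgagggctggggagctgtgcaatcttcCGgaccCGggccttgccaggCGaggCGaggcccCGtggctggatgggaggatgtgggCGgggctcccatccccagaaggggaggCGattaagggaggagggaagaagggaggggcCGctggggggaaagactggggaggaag

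In the third group neither mark was called. Bmp5 (chr9:75775115-75775414, plus) and Mstn (chr1:53061390-53061689, plus) have few CpG.
Bmp5: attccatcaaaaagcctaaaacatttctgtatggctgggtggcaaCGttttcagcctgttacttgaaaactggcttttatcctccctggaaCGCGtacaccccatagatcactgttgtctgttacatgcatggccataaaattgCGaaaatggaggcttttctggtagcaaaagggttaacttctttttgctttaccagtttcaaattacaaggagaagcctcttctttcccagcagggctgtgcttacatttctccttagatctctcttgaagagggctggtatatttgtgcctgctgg
Mstn: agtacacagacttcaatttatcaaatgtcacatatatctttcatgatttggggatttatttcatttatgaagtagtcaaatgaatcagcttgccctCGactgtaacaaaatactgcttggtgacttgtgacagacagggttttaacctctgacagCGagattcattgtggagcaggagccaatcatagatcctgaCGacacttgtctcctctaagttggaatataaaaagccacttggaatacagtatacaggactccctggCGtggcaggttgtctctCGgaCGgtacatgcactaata

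Most genes of the family carried both marks. None carried H3K27me3 without H2AK119ub, a class that was also small among all genes. H2AK119ub was called in the window of 32 of the 37 genes (86.5%), against 60.6% of all protein-coding genes. H3K27me3 was called at 27 (73.0%), against 27.3% of all protein-coding genes. These 27 also had H2AK119ub, so both marks were found at 73.0%, against 23.9% of all genes. The other 10 genes divided evenly. H2AK119ub alone was found at 5 (13.5%, against 36.7% of all genes), namely Bmp7, Gdf15, Tgfb1, Tgfb3 and Inha. Neither mark was found at 5 (13.5%, against 36% of all genes), namely Bmp5, Gdf2, Gdf3, Gdf9 and Mstn. H3K27me3 alone was found at 3.44% of all genes, and 5167 of the 5911 genes with H3K27me3 also had H2AK119ub. On the autosomes, where all of these genes lie, the shares for all genes were 60% for H2AK119ub, 24.9% for H3K27me3 and 21.6% for both. The genes were shorter than most, with a median gene body of 9.39 kb, against 17.3 kb for all protein-coding genes. No test was made of these shares, since the genes were chosen with earlier results of these data known.

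The marks differed in how much of a gene they covered. The median covered share of the gene window was 82.1% for H2AK119ub, against 10.9% over all protein-coding genes, and 33.7% for H3K27me3, against 0% over all genes. The 0% follows from H3K27me3 being called at only 27.3% of all genes. Among genes with H3K27me3, the median covered share was 45.5% in the family and 28.1% over autosomal genes. Among genes with H2AK119ub, it was 93.3% and 62.5%. The genes with both marks were shorter in the family, with a median body of 9.97 kb, against 27.4 kb over autosomal genes. For genes with H2AK119ub alone the median body was 18.1 kb in the family and 18.7 kb over autosomal genes. Whether gene length bears on the covered shares was not tested. H2AK119ub covered the whole window at 15 of the 37 genes (40.5%, against 15.8% of all genes), and H3K27me3 at 4 (10.8%, against 5.64%). These 4 were Bmp10, Gdf6, Gdf7 and Nog. Among genes with the mark, the widest H3K27me3 region of a gene had a median of 10.04 kb in the family and 11.4 kb over autosomal genes, so the widths were close. The same median for H2AK119ub was 22.8 kb in the family and 20.1 kb over autosomal genes.

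**Figure D1:**
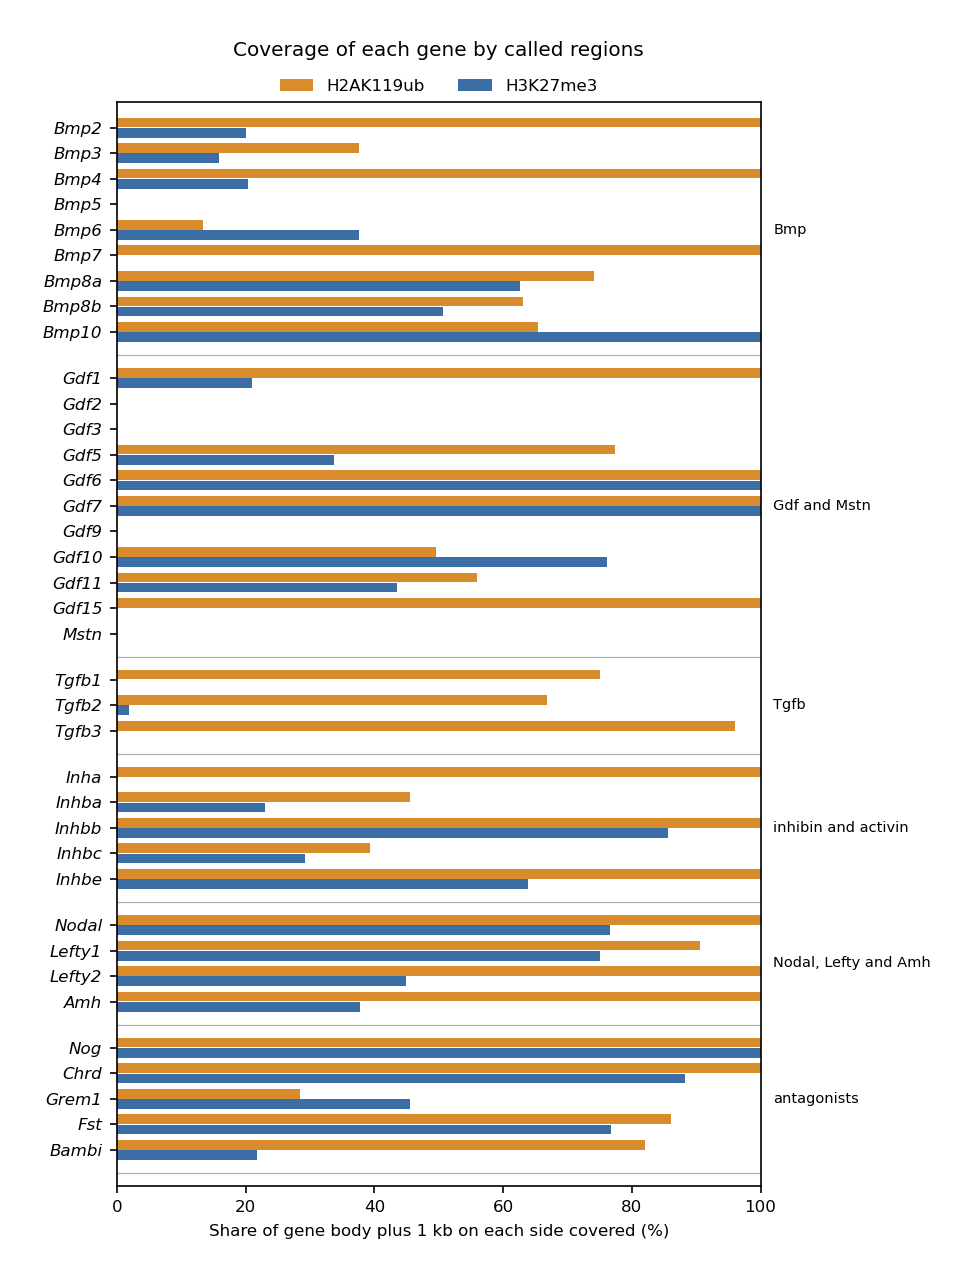
Share of each gene window (gene body plus 1 kb on each side, in %) covered by called regions of H2AK119ub (orange) and H3K27me3 (blue), with genes grouped by subfamily. H3K27me3 reaches 100% at Bmp10, Gdf6, Gdf7 and Nog, is at 1.94% at Tgfb2, and is absent at Tgfb1, Tgfb3, Inha, Gdf15, Bmp7 and the 5 genes with neither mark.

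Counted in bases, called H3K27me3 lay mostly within H2AK119ub chromatin, in the family as over autosomal genes. Of the H3K27me3 bases in the windows, 76.7% were also under H2AK119ub, against 70.9% for autosomal genes. For the Bmp genes alone this share was 56.8%. The 37 windows met 30 H3K27me3 regions and 42 H2AK119ub regions. Of the 30 H3K27me3 regions, 18 (60%) lay wholly inside 1 H2AK119ub region, against 38.9% of the autosomal H3K27me3 regions at protein-coding genes. A further 11 overlapped H2AK119ub in part, and 1 region (3.33%), inside Bmp6, had none. Of the autosomal H3K27me3 regions at protein-coding genes, 22.7% had none. At 20 of the 27 genes with H3K27me3, all of the mark in the window was also under H2AK119ub, against 50.2% of autosomal genes with H3K27me3. The exceptions were Bmp3, Bmp6, Bmp8a, Bmp10, Gdf5, Gdf10 and Grem1. H3K27me3 reached past H2AK119ub on both sides of the gene start at Gdf10 and Grem1. At Gdf6, which has no listed start, it did so on both sides of the gene.

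Among the 9 Bmp genes, 7 carried both marks (77.8%, against 23.9% of all protein-coding genes). Bmp2 and Bmp4, which encode closely related ligands with roles in hair follicle cycling, had the same arrangement, a short H3K27me3 region inside a broad H2AK119ub region that covered the entire gene. At Bmp2 (chromosome 2, 133552159 to 133562896) the H2AK119ub region was 28.8 kb wide and the H3K27me3 region 2.56 kb, from 133552379 to 133554938. At Bmp4 (chromosome 14, 46383525 to 46390669) the widths were 31.4 kb and 1.86 kb. In both genes H3K27me3 covered about the same small part of the window, 20.1% at Bmp2 and 20.3% at Bmp4. The printed Bmp4 start lay outside the H3K27me3 region, which began 213 bp downstream.

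Bmp6, whose product is a Bmp of the hair follicle stem cell niche, differed from these. It is the longest gene of the family (155 kb), and its window held 3 regions of each mark. The regions at its start were of similar extent, with H2AK119ub from 10.5 kb before to 9.58 kb after the start site and H3K27me3 from 6.90 kb before to 19.7 kb after it. A second H3K27me3 region of 6.60 kb lay 60.7 kb into the gene, over a 2.05 kb H2AK119ub region. The third, of 31.7 kb (38452232 to 38483885 on chromosome 13), had no H2AK119ub and is the only such region in the family. Over the whole window, 37.6% was covered by H3K27me3 and 13.4% by H2AK119ub.

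Bmp7, which encodes a ligand that acts in kidney and epithelial development, had the widest H2AK119ub region of the family and no H3K27me3. This region of 216 kb (172751022 to 172966586 on chromosome 2) met no other protein-coding gene and ran 117 kb beyond the lower-coordinate end of Bmp7. The nearest H3K27me3 region lay 8.73 kb from the gene. Bmp5, the other Bmp gene without H3K27me3, was far from both marks: the nearest H2AK119ub region was 90.6 kb away and the nearest H3K27me3 region 158 kb.

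Bmp8a and Bmp8b are neighbouring copies on chromosome 4, separated by 187 kb, with roles in germ cell formation. Each had a start covered by both marks and a second H3K27me3 region further in. At Bmp8a these regions were 12.9 and 8.55 kb wide, and at Bmp8b 12.5 and 4.48 kb. The inner region met Oxct2a in Bmp8a and Oxct2b in Bmp8b, a pair of related ketone-metabolism genes that lie within the Bmp8 genes. H3K27me3 covered 62.7% of the Bmp8a window and 50.7% of the Bmp8b window. Reads from such copies can align to either, and how these were treated is not given in the sources used here, so the likeness of these loci is uncertain.

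Bmp3, which encodes a Bmp that opposes the others, had both marks towards its lower-coordinate end, with H2AK119ub over 37.6% and H3K27me3 over 15.9% of the window. Bmp10, a ligand of the heart, was the only Bmp gene entirely under H3K27me3. Its H3K27me3 region was 34.3 kb wide (87416695 to 87451043 on chromosome 6) and passed beyond the H2AK119ub region of 20.7 kb, so that 65.4% of the H3K27me3 in the window was also under H2AK119ub.

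The Gdf group and Mstn had both marks at 6 of 11 genes (54.5%, against 23.9% of all genes), H2AK119ub alone at 1 and neither at 4. The share with neither, 36.4%, was close to that of all protein-coding genes (36%). The closely related joint-forming ligand genes Gdf5, Gdf6 and Gdf7 all had both marks but to different extents. Gdf6 lay entirely within regions of 24.6 kb (H2AK119ub) and 49.7 kb (H3K27me3). Gdf7 also lay entirely within both, in regions of 17.8 and 21.5 kb. At Gdf5 the H3K27me3 region was 2.13 kb and covered 33.7% of the window.

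Gdf10, a relative of Bmp3, and Gdf2, the circulating ligand also called Bmp9, are neighbours on chromosome 14, 4.52 kb apart, and differed. Gdf10 had a 20.6 kb H3K27me3 region (33913338 to 33933964) around an 11.4 kb H2AK119ub region, and H3K27me3 covered 76.2% of its window. The H3K27me3 region ended inside Gdf10, 7.07 kb before Gdf2, which had neither mark. Gdf11, which patterns the body axis, had H3K27me3 from 7.17 kb before to 4.74 kb after its start, within a 68.2 kb H2AK119ub region that also met Cd63, Rdh5, Bloc1s1 and Itga7. Gdf1, which acts with Nodal in left-right patterning, had a 4.38 kb H3K27me3 region over its upstream start, where the annotation also places Cers1, a ceramide synthase gene that shares its transcript. The downstream start of Gdf1 lay outside that region.

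Gdf15, a stress-induced cytokine gene, had H2AK119ub alone, in a 62.4 kb region that also met Ell, Isyna1, Ssbp4 and Lrrc25, and the nearest H3K27me3 region was 4.11 kb away. The genes with neither mark in this group were those for Gdf2, for the early embryo factor Gdf3, for the oocyte factor Gdf9 and for myostatin (Mstn), the muscle growth inhibitor. Their nearest H2AK119ub regions lay 9.34 kb, 4.28 kb, 10.3 kb and 101 kb away, in that order. Their nearest H3K27me3 regions lay 7.07 kb, 17.1 kb, 11.8 kb and 16.3 kb away. Only Mstn was thus remote from H2AK119ub among these 4.

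The 3 Tgfb genes all carried H2AK119ub, against 60.6% of all protein-coding genes, with little or no H3K27me3. H3K27me3 was called at 1 of them (33.3%, against 27.3% of all genes). H2AK119ub covered 75.1% of the Tgfb1 window, 66.9% of Tgfb2 and 96.0% of Tgfb3. Tgfb1 encodes the isoform best known for restraining keratinocyte growth, and its H2AK119ub ran from 16.4 kb before to 11.2 kb after the start, with a second region at the other end of the gene. The nearest H3K27me3 region was 8.68 kb from Tgfb1 and 109.5 kb from Tgfb3. Tgfb2, an isoform of hair follicle development, had the smallest H3K27me3 region of the family, 1.72 kb wide from 186702984 to 186704705 on chromosome 1. It lay 1284 bp downstream of the listed start and covered 1.94% of the window. Tgfb2 no longer counted among the 27 when at least 10% of the window had to be covered.

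Among the genes for inhibin and activin subunits, all 5 had H2AK119ub, against 60.6% of all protein-coding genes. Of these, 4 had H3K27me3 (80%, against 27.3% of all genes). Inhba and Inhbb encode the subunits of activin A and activin B. Inhbb lay wholly under a 52.3 kb H2AK119ub region and had H3K27me3 over 85.6% of its window, including the start. Inhba was covered less, at 45.6% by H2AK119ub and 23.0% by H3K27me3, and its 6.76 kb H3K27me3 region began 1321 bp downstream of the listed start. Inhbc and Inhbe, subunit genes active in liver, lie 4.47 kb apart on chromosome 10 and shared 1 H3K27me3 region of 10.04 kb (127350007 to 127360050) and 1 H2AK119ub region of 11.9 kb. The shared H3K27me3 covered the start of Inhbe but only the far end of Inhbc, whose start lay 10.5 kb away under a separate 1.97 kb H2AK119ub region. These genes are therefore 1 locus in the lists. Inha, which encodes the subunit that turns activins into inhibins, had H2AK119ub alone, in a 50.8 kb region that also met Asic4, Chpf, Tmem198 and Obsl1.

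Nodal, Lefty1, Lefty2 and Amh all carried both marks, against 23.9% of all protein-coding genes. Nodal patterns the early embryo, and Lefty proteins inhibit it. H2AK119ub covered at least 90.6% of each of these 4 windows, and H3K27me3 covered 76.7% at Nodal, 75.0% at Lefty1, 44.9% at Lefty2 and 37.7% at Amh. Lefty1 and Lefty2 are neighbours on chromosome 1, 35.9 kb apart. Each had its own H3K27me3 region, of 4.88 and 3.96 kb, and its own H2AK119ub region, of 36.0 and 32.9 kb, with 1.80 kb between the H2AK119ub regions. At Amh, the hormone gene of the developing testis, the 6.10 kb H3K27me3 region covered one end of the gene and reached Jsrp1.

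All 5 antagonist genes carried both marks, against 23.9% of all protein-coding genes. H3K27me3 covered a median of 76.7% of their windows, against 26.1% of the windows of the 32 ligand genes. Nog, the gene for noggin, lay entirely within an H2AK119ub region of 20.5 kb and an H3K27me3 region of 22.8 kb (89292660 to 89315414 on chromosome 11). Chrd, the gene for chordin, had H3K27me3 over 88.3% of its window, from 7.18 kb before to 8.74 kb after its start. Both proteins bind Bmp ligands and keep them from their receptors. Fst, the gene for the activin-binding protein follistatin, had H3K27me3 over 76.7% of its window.

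Grem1, which encodes the Bmp antagonist gremlin, had the narrowest leading H2AK119ub region of the family, 3.40 kb, from 0.54 kb before to 2.86 kb after the start. Its H3K27me3 region was wider, 7.72 kb, and extended beyond H2AK119ub in both directions. Bambi, which encodes a membrane decoy related to type I receptors, had 22.5 kb of H2AK119ub over 82.1% of its window, and H3K27me3 over 21.7%. Grem1 and Gdf10 were thus marked by H3K27me3 more widely than by H2AK119ub, whereas Bambi showed the reverse. The widest H3K27me3 region was also wider than the widest H2AK119ub region at Bmp6, Bmp10, Gdf6, Gdf7 and Nog.

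RefSeq start sites were listed for 23 of the 37 genes. H2AK119ub lay over a start site at 20 of them (87.0%, against 39.4% of protein-coding genes with such an entry), and H3K27me3 at 13 (56.5%, against 19.4%). All 13 starts under H3K27me3 were also under H2AK119ub, as were most such starts over all protein-coding genes with an entry (2812 of 3358). The 3 starts without either mark were those of Bmp5, Gdf2 and Mstn. At 4 genes H3K27me3 lay in the window but not over the start, namely Bmp4, Tgfb2, Inhba and Inhbc. In each of these the listed start was under H2AK119ub and H3K27me3 lay downstream of it. At Inhba and Tgfb2 the annotated gene body reaches upstream of the listed start, and its outer end was not covered. The Inhba body begins at 16004256 and its H2AK119ub region at 16008126. Tgfb2, on the minus strand, ends at 186709697 in coordinate and its H2AK119ub at 186709447.

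**Figure D2:**
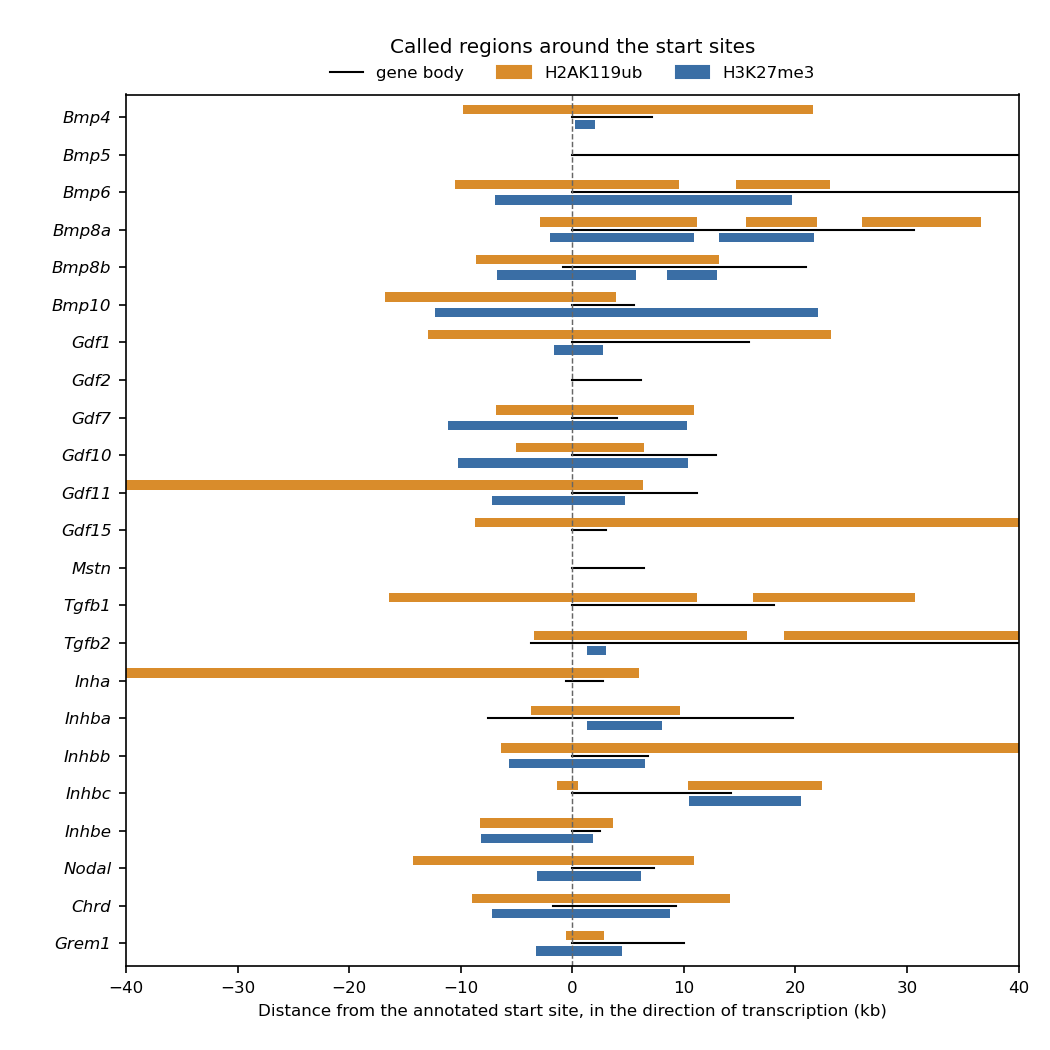
Called H2AK119ub (orange) and H3K27me3 (blue) regions around the start site of the 23 genes with a listed start, with the gene body as a black line and distance in kb in the direction of transcription. The plot ends 40 kb from the start on each side, and regions that pass this limit are cut there. H3K27me3 begins downstream of the start at Bmp4, Tgfb2, Inhba and Inhbc, and the rows of Bmp5, Gdf2 and Mstn have no region.

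The promoter windows with both marks over the start held more CpG than the others in the family. The median was 23 CpG per 300 bases in the 13 genes with both marks, 7 in the 7 genes with H2AK119ub alone and 6 in the 3 genes with neither. Over all autosomal protein-coding genes the medians of these classes were 16, 16 and 13, so the medians lay further apart in the family. The highest numbers were 42 at Gdf10, 36 at Gdf11 and 34 at Chrd, all with both marks. The lowest among genes with both marks were 3 at Bmp10, 5 at Nodal and 6 at Inhbe. Of the 10 genes with 20 or more CpG, 9 had both marks over the start, against 15.5% of autosomal genes with as many, and the exception was Tgfb1 with 30. Of the 10 genes with under 10 CpG, 3 had both marks over the start, against 10.6% of autosomal genes. Of the 3 with 10 to 19 CpG, 1 did, against 17.4%. These are descriptions of 23 promoters, and no test was made.

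**Figure D3:**
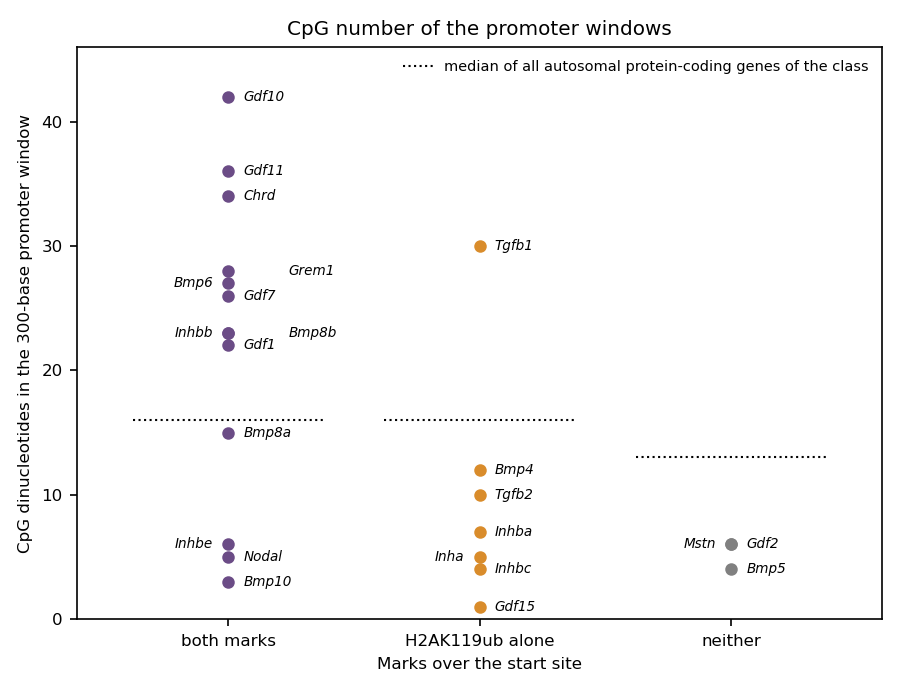
Number of CpG in the 300-base promoter window of the 23 genes with an entry, by the marks over the start site. Dotted lines give the median over all autosomal protein-coding genes of the same class. Gdf10 is highest at 42, and Tgfb1 at 30 stands above the other genes with H2AK119ub alone, which lie between 1 and 12.

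Other short motifs were counted in the same windows. The letters GGCGCC, which read the same on both strands, occurred in 4 of the 23 windows (17.4%), against 15.6% of all protein-coding windows of the same length. These 4 were Gdf1, Gdf10, Chrd and Grem1, all with both marks. Of the 23 genes, 17 had both marks in the gene window and 13 over the start. TATAAA, searched on both strands, occurred in 5 windows (21.7%, against 13.4%), those of Gdf2, Gdf11, Mstn, Tgfb2 and Inhba. Neither motif overlaps the other. A match is only a run of letters in the window.

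H3K27me3 was called at 22 of the 32 ligand genes (68.8%), and at fewer of the listed genes that receive and carry the signal. All 14 receptor genes had H2AK119ub in the window, against 60.6% of all protein-coding genes, and 3 (21.4%) had H3K27me3, against 27.3%. These 3 were Acvr1c, Acvr2b and Bmpr1b, and H3K27me3 covered 11.1%, 4.31% and 1.94% of their windows. The widest H2AK119ub region at a receptor, 108 kb, was at Acvr1b, an activin type I receptor gene. Receptor genes are long, with a median body of 88.4 kb, and H2AK119ub covered a median of 18.4% of their windows. Of the 8 Smad genes, 7 (87.5%) had H2AK119ub and 2 (25%) had H3K27me3, the latter a share close to that of all genes. At Acvr2a, Smad2 and Smad5, H2AK119ub lay only in the flanking 1 kb, over 251, 890 and 639 bp. Smad6, an inhibitory Smad, had both the widest H2AK119ub region (279 kb) and the widest H3K27me3 region (10.8 kb) of this group, Smad9 was the other with H3K27me3, and Smad4, the common partner, had neither mark. Of 9 targets and nuclear partners, 8 (88.9%) had H2AK119ub, widest at the Bmp target Id2 (93.8 kb). Only Id3 (11.1% of this list) had H3K27me3, in a region of 1.67 kb. Tgif1 had neither mark. The receptors, Smad9 and others beyond the widest of each list were named after their values had been seen.

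Further extracellular modulators lay between. Of 19 genes, 18 (94.7%) had H2AK119ub, against 60.6% of all genes, and 8 (42.1%) had H3K27me3, against 27.3%. H3K27me3 was widest at Chrdl1 (146 kb), a chordin-like gene on X, and among the autosomal genes of the list at Sost (72.6 kb). Over all protein-coding genes the widest H3K27me3 region at a gene was 1114 kb, against 300 kb over autosomal genes. H2AK119ub was widest at Sost (211 kb), which encodes sclerostin and lay entirely under both marks. In families of other pathways, both marks were found at 15 of 19 Wnt genes (78.9%) and 16 of 22 Fgf genes (72.7%). The share was 68.8% for the 32 ligand genes described here, without the antagonists. The Wnt and Fgf lists were taken by gene symbol, without regard to whether the product is a secreted ligand. The lists differed in other respects. Genes with neither mark numbered 0 in the Wnt and 0 in the Fgf list, against 5 of the 32 ligand genes. H3K27me3 was called at 78.9% of Wnt and 90.9% of Fgf genes, against 68.8% of the 32 ligand genes. It covered a median of 23.7% of the Wnt and 78.3% of the Fgf windows, against 26.1% of the windows of these ligand genes. H3K27me3 without H2AK119ub was found at 4 Fgf genes (18.2%, against 3.44% of all genes) and at none of the Wnt or TGF-beta family genes. These 4 were Fgf6, Fgf7, Fgf10 and Fgf14, with H3K27me3 over 63.2%, 13.1%, 4.58% and 1.13% of their windows, in that order. No test of the differences between these lists was made.

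**Figure D4:**
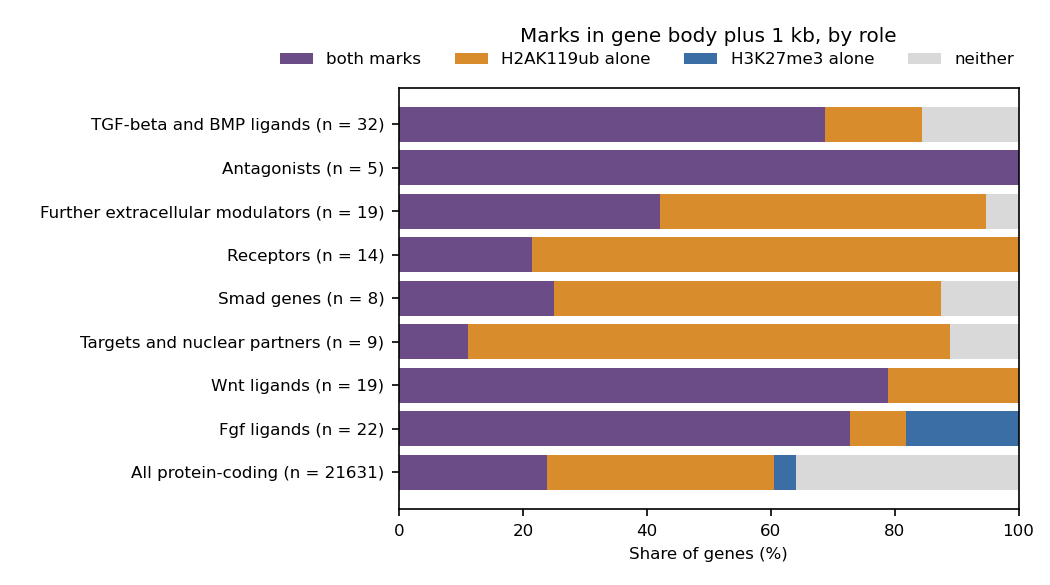
Share of genes (%) in each class of marks (the 2 together, either one without the other, or none) in the gene window. Rows are the TGF-beta family by role, Wnt and Fgf genes taken by symbol (labelled as ligands) and all protein-coding genes. Both marks are found at 68.8% of the ligand genes and at 100% of the 5 antagonist genes. They are found at 21.4% of receptor genes, 25% of Smad genes and 23.9% of all protein-coding genes.

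The lists hold no expression values, so the labelled cell type can be set only against the marks at its genes. H3K27me3, found at 27.3% of all genes, was called at 0 of 6 basal epidermal markers (Krt5, Krt14, Itga6, Itgb4, Col17a1 and Trp63), 1 of 4 suprabasal, 2 of 4 melanocyte, 3 of 3 Merkel cell, 3 of 3 fibroblast, 2 of 3 immune and 0 of 2 endothelial markers. H2AK119ub, found at 60.6% of all genes, was called at 6 of 6 basal, 3 of 4 suprabasal, 4 of 4 melanocyte, 3 of 3 Merkel cell, 3 of 3 fibroblast, 2 of 3 immune and 1 of 2 endothelial markers. Whether other cells contributed to the marks at the TGF-beta family genes was not tested.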

How the data were processed

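ChIP-seq of H2AK119ub and H3K27me3 was analysed from the 2 lists of called regions that the authors deposited, 1 per mark, and which hold positions only (chromosome, start, end), per the file headers. Per the submitters' processing notes, Bowtie2 2.3.3.1, SAMtools 1.9 and mm10 are listed, with no role stated. How regions were called, at which threshold, and whether the input or pooled libraries entered is not given in the sources used, although this sets their number and width. Start positions were taken as zero-based and shifted by 1. Genes and promoter windows came from RefSeq (GRCm38.p6). All 37 symbols matched a gene and 23 a promoter entry, and for genes with several starts the most upstream window was used for sequence. A region counted when it shared at least 1 bp with the gene body extended by 1000 bp. The members and lists were chosen with earlier results of these data known, so no test was made. All 37 members are named, and other pathway genes by the widest region of each mark in a list, or for having neither, except where a gene is not reported here. Counting was done in Python with pandas 2.3.3 and checked on simulated regions.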

Additional observations from a re-analysis of the deposited data

How the results depend on the processing

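Under 10 other settings, 9 of the 50 recomputed values could not change, because the setting altered only the comparison with all genes or only the rule for counting. Of the other 41, 37 stayed within the limits set (counts within 1.5 times, medians within the binomial interval of the median over genes, which is wide). The 4 beyond them came from counting regions only within 1 kb of a listed start, which keeps 23 of the 37 genes. There, 20 genes had H2AK119ub (87.0%), 14 had H3K27me3 (60.9%) and 14 had both, and the median covered share by H3K27me3 was 100%. The H2AK119ub count fell only through the smaller number of genes, whereas H3K27me3 was also lost at Tgfb2, Inhba and Inhbc. With only regions of at least 5 kb, H3K27me3 was counted at 20 genes (54.1%, against 23.3% of all genes), without Bmp2, Bmp4, Gdf1, Gdf5, Tgfb2, Lefty1 and Lefty2, and both marks at 19. The median covered share by H3K27me3 fell from 33.7% to 21.7% in that setting, and was 50% when only the gene ends were counted. A window of 5 kb added H2AK119ub at Gdf3 and H3K27me3 at Gdf15. When the gene ends alone were counted, Inhba lost both marks and Tgfb2 lost H3K27me3. No paired analysis was possible because each mark has 1 list without replicate columns, and for the same reason no replicate could be left out. The depth is unknown, so the lists cannot show that a mark is absent from a gene such as Bmp5.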

Other observations

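Some regions at these genes also met other genes, so a mark in the window is not always a mark of the named gene alone. The same share over all regions of the lists is not given here, so these counts have no comparison. Of the 42 H2AK119ub regions, 16 met at least 1 other protein-coding gene and up to 4 of them, and 26 met none. Of the 30 H3K27me3 regions, 8 met another gene and 22 met none. The H3K27me3 region of Gdf7 also met Ldah, a lipid droplet gene, that of Gdf11 met Cd63, a tetraspanin gene, and that of Chrd met Thpo, the thrombopoietin gene. H2AK119ub regions reached Cope and Upf1 next to Gdf1 and Eif4ebp2 next to Nodal, and the H3K27me3 regions at Gdf1 and Nodal did not meet these genes.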
